A study of Mus musculus with 15 samples.

Results

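The interleukin genes of the mouse aorta were taken as every gene symbol in the count files that starts with Il and a number. This name rule gave 84 of the 24982 gene symbols, of which 39 code for ligands, 41 for receptor chains and 4 for other products. The rule used names only and no measured value. For tests of change a member needed at least 10 counts in at least 5 of the 15 libraries, which left 37 members, made up of 9 ligands, 27 receptors and the binding protein *Il18bp*. Of the 37, 36 reached 10 counts in at least 5 of the 10 libraries outside the orchiectomized group, the exception being the receptor *Il17rb*.

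The data were RNA-Seq counts from whole aortas of 10-month-old male wild-type C57BL/6 mice (C57BL/6J in the study's text), with 5 mice in each of 3 groups. Control mice were sham operated, a second group was orchiectomized to remove the testicular source of androgen, and the other group was orchiectomized and given a pellet of dihydrotestosterone (DHT), an androgen that is not converted to estrogen. After 2 weeks of recovery all 15 mice, controls included, received Aldo-salt, that is, aldosterone at 200 µg/kg per day by minipump with 0.9% NaCl and 0.2% KCl in the drinking water, and aortas were harvested on day 7. No group without Aldo-salt and no sham-operated group with DHT was analysed here, so the comparisons concern androgen under Aldo-salt only, and the DHT-treated mice also lacked testes. Levels are given as CPM (counts per 1000000 reads) on library sizes scaled by the TMM method, and a member is said to have risen or fallen when the edgeR quasi-likelihood test gave an unadjusted P value under 0.01, the threshold used in the study. The P values printed are adjusted by Benjamini-Hochberg over all 14191 genes tested with the same tool, unless a fit of more genes is named, so a member can pass the threshold and have a large adjusted P value.

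Interleukins are secreted or released proteins by which leukocytes and tissue cells signal to each other, and each acts through a receptor built from a specific chain and often a shared one. The IL-1 family and the IL-17 family signal mainly through NF-κB and MAP kinases, whereas receptors with the common gamma chain, gp130 or IL-10 receptor chains signal through JAK kinases and STAT proteins. In arteries these cytokines are known for recruiting leukocytes and for changing smooth muscle cells and fibroblasts in aneurysm and atherosclerosis.

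One library needs to be named before the results. Orchiectomized library 2 carried lung transcripts: the summed level of 13 lung epithelial genes, surfactant genes among them, was 7740 CPM there and 14.8 to 81.2 CPM in the other 14 libraries, the highest of which was orchiectomized library 4. The surfactant gene *Sftpc*, which defines the lung epithelium, had 22367 counts in library 2, 57 in library 4, 28 in library 3 and 0 in all 5 control libraries. The same library was the highest of all 15 for 19 of the 37 tested members, and orchiectomized library 4 was the highest for 6. Leukocyte genes were also unevenly spread. The sum of 8 T cell genes was 4.31 to 14.4 CPM in control, 8.18, 48.8, 62.9, 33.8 and 15 CPM in orchiectomized libraries 1 to 5, and 4.45 to 7.66 CPM in DHT-treated libraries. The sum of 6 B cell genes was 3.28 to 8.34, 6.35 to 156 and 2.65 to 11.0 CPM, and that of 7 macrophage genes 255 to 679, 414 to 1190 and 228 to 449 CPM, in the same order of groups. Neutrophil genes (7 genes) summed to 0.562 to 2.27, 5.98 to 32.2 and 2.25 to 11.7 CPM without overlap between control and orchiectomized libraries, and mast cell genes (6 genes) to 39.2 to 173, 114 to 257 and 45.6 to 122 CPM. No count of T cell, B cell, neutrophil or mast cell genes that passed the test is given, since some genes of each list met the minimum for testing only through the orchiectomized libraries. Fibroblast genes summed to 3970 to 5790, 3550 to 6290 and 2920 to 4470 CPM, adipocyte genes to 1500 to 4050, 1570 to 2930 and 1840 to 3650 CPM, and lymph node stroma genes to 5.16 to 45.5, 5.06 to 22.3 and 4.20 to 17.9 CPM, all overlapping between groups. The smooth muscle genes of the aortic wall were the highest list in every library, at 10300 to 24500 CPM, with the lowest value in orchiectomized library 2. The results below are therefore given with and without that library, and the part that these cells had in them was not tested.

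**Figure D1:**
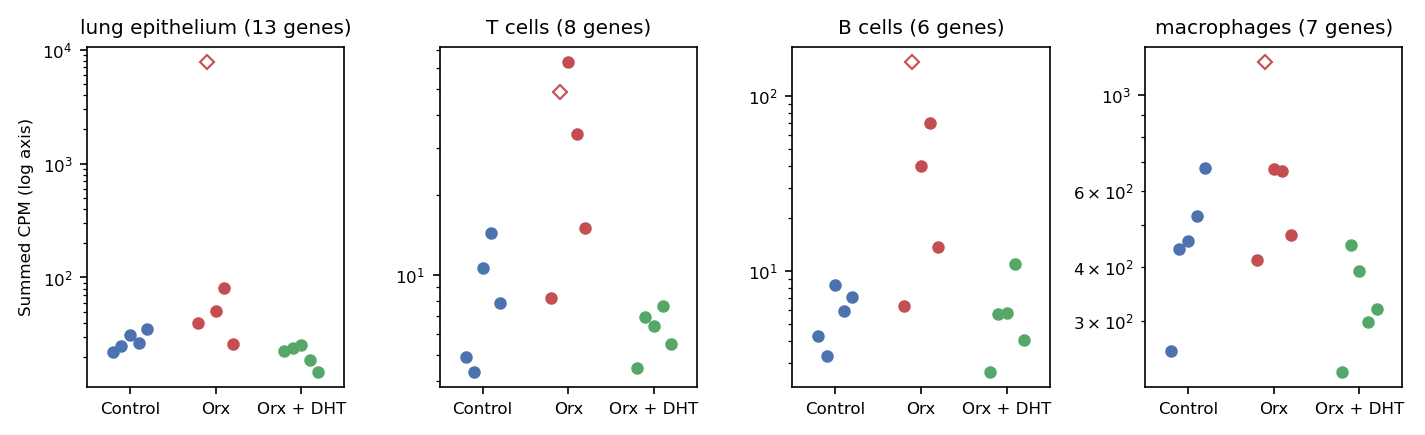
Summed level (CPM, log axis) of the genes of 4 marker lists in each of the 15 libraries, by group, with orchiectomized library 2 as an open diamond. That library stands at 7740 CPM for lung genes, and orchiectomized libraries 2, 3 and 4 have the highest T cell and B cell sums.

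Receptor chains had the highest levels. Per kilobase of exon, the highest member in control aortas was *Il11ra1*, the specific chain of the IL-11 receptor, at 53.9 ± 7.56 CPM per kb (SD, n = 5), followed by *Il6st*, the gp130 chain shared by IL-6, IL-11 and related cytokines, at 31.6 ± 4.86. These ranges did not overlap, since the lowest *Il11ra1* value was 42.0 and the highest *Il6st* value 37.9 CPM per kb. Next came *Il17rc*, a chain of the IL-17A receptor, at 16.0 ± 2.76, and *Il33*, the alarmin of the IL-1 family and the highest ligand, at 12.6 ± 2.46 CPM per kb. *Il10rb*, the accessory chain for IL-10 and IL-22, had 11.7 ± 0.906 and *Il1r1*, the signaling IL-1 receptor, 11.5 ± 2.70 CPM per kb, so that the ranges of *Il33*, *Il10rb* and *Il1r1* overlapped. *Il17b*, a ligand of the IL-17 family, followed at 9.19 ± 1.69 CPM per kb. The lowest tested member was its receptor *Il17rb* at 0.206 ± 0.103 CPM per kb. A near-identical copy of *Il11ra1*, *Il11ra2*, was listed at 0 in all libraries, and how reads of the pair were divided in counting is uncertain.

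**Figure D2:**
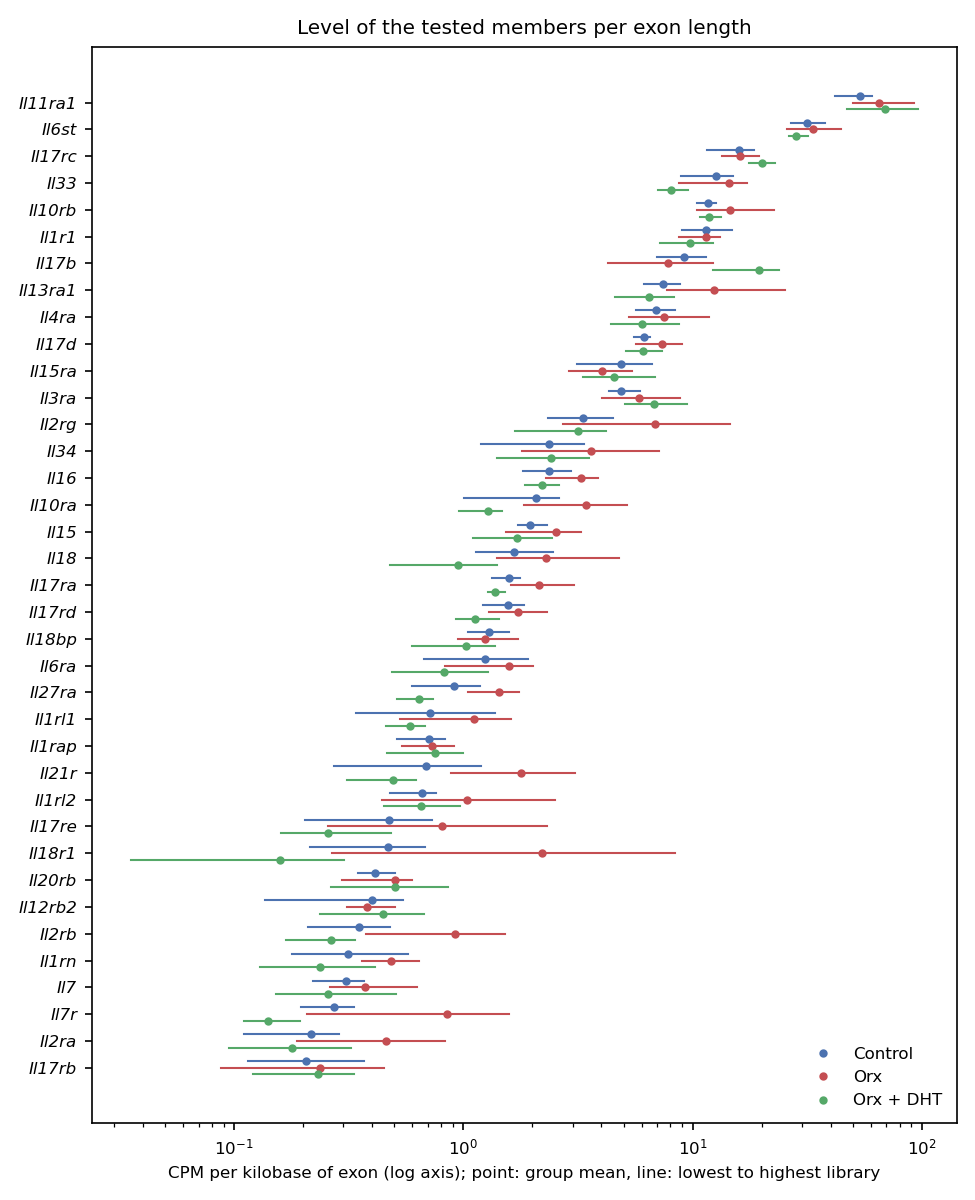
Level of the 37 tested members per kilobase of exon (CPM per kb, log axis), with the mean of each group as a point and the lowest to highest of its 5 libraries as a line. *Il11ra1* and *Il6st* lead in all 3 groups, and *Il33* and *Il17b* are the highest ligands in control aortas.

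Most ligands were hardly detected. Of the 47 members below the minimum, 30 were ligands and 14 receptors, and 10 ligands had no count in any library. *Il17a*, which codes for the T cell cytokine IL-17A, was among these. *Il6*, a main inflammatory cytokine of the injured artery, had 0, 11, 2, 3 and 2 counts in control libraries 1 to 5, 0, 6, 3, 0 and 0 in orchiectomized, and 1, 1, 0, 0 and 1 in DHT-treated libraries. Thus its signaling chain *Il6st* was abundant while the ligand was at the limit of detection at this depth. When every gene with any count was fitted, *Il6* had a log2 fold change of −1.05 (adjusted P = 0.662, edgeR) for orchiectomized against control and −2.23 (adjusted P = 0.587) for DHT-treated against control mice, and neither passed the threshold. *Il1b*, the IL-1 cytokine made by activated macrophages, had 3, 7, 4, 2 and 6 counts in control, 10, 28, 9, 8 and 4 in orchiectomized, and 4, 1, 3, 3 and 9 in DHT-treated libraries. The highest count came from the library with lung transcripts, and the groups overlapped. *Il1a* had at most 7 counts in any library.

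Besides *Il6* and *Il1b*, 8 members reached 10 counts in at least 1 library without meeting the minimum. Their highest count was in orchiectomized library 2 for *Il22ra1* (64 counts), the IL-22 receptor of epithelia, for *Il18rap* (35 counts), the second chain of the IL-18 receptor, and for the decoy receptor *Il1r2* (11 counts). *Il9r*, the IL-9 receptor, had 29, 14 and 32 counts in orchiectomized libraries 2, 3 and 4 and at most 6 in every other library. *Il5ra*, the IL-5 receptor of eosinophils and B-1 cells, had 15, 8, 15 and 6 counts in orchiectomized libraries 2 to 5 and at most 3 elsewhere. Orchiectomized libraries 2, 3 and 4 also had the highest T cell and B cell sums. Library 3, with the highest T cell sum, had fewer *Il9r* counts than libraries 2 and 4. The part of these cells in the counts of *Il9r* and *Il5ra* was not tested. *Il11* ranged from 2 to 17 counts, *Il31ra* from 0 to 19 and *Il12rb1*, the chain shared by the IL-12 and IL-23 receptors, from 0 to 10.

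The first comparison asked which interleukin genes changed when testicular androgen was removed. Of the 37 members 4 rose and none fell, and these were the receptors *Il7r*, *Il2rb*, *Il21r* and *Il27ra*, which are known from lymphocytes. Over all 14191 genes tested, 2.11% rose and 1.12% fell by the same rule, against 10.8% of the members. By class, 4 of 27 receptors (14.8%) and 0 of 9 ligands rose. The median log2 fold change was 0.36 for receptors, 0.37 for ligands and 0.04 over all genes, and the sign was positive for 32 of 37 members. No member passed an adjusted P value of 0.05 with edgeR, the smallest being 0.235. None of the 37 members had every orchiectomized library above every control library, a separation found in 0.994% of all genes.

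Without orchiectomized library 2, only *Il2rb* passed the threshold (1 of 37 members, against 0.881% of all genes that rose and 0.944% that fell), and the median log2 fold change was 0.26 for receptors and 0.16 for ligands.

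The second comparison asked which members changed when orchiectomized mice were given androgen. Of the 37 members 13 (35.1%) fell, namely the ligands *Il33*, *Il16* and *Il18* and the receptors *Il18r1*, *Il7r*, *Il21r*, *Il2rb*, *Il10ra*, *Il2ra*, *Il27ra*, *Il13ra1*, *Il17ra* and *Il17rd*, and 1 ligand, *Il17b*, rose. Over all genes 7.35% fell and 2.44% rose. At an adjusted P value under 0.05, 8 members fell and 1 rose, against 4.82% of all genes in either direction. This count of 9 rested on single libraries: it was 2 without DHT-treated library 5, 3 without DHT-treated library 3 or orchiectomized library 4, 4 without DHT-treated library 1 or 4, 14 without orchiectomized library 1, and 7 to 11 without any one of the others. By class, 10 of 27 receptors (37%) and 3 of 9 ligands (33.3%) fell, and the median log2 fold change was −0.63 for receptors and −0.56 for ligands, beside −0.02 over all genes. For 6 receptors every DHT-treated library lay below every orchiectomized library, which held for 4.38% of all genes, and for *Il17b* every DHT-treated library lay above them, which held for 2.05%.

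Leaving out orchiectomized library 2 kept 10 of the 13 decreases and the increase of *Il17b*. *Il2ra*, *Il16* and *Il18* no longer passed. The background was then 5.29% lower and 3.11% higher, and at an adjusted P value under 0.05 it was 2.84% against 7 members.

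Mice with DHT in place of testes differed from sham-operated mice in 2 members, *Il17b*, which was higher, and *Il33*, which was lower, both ligands. This compares with 1.53% of all genes higher and 2.01% lower by the same rule. Neither had an adjusted P value under 0.05 with edgeR (smallest adjusted P = 0.175), whereas 2 members had one with DESeq2 and 1 in an edgeR fit of only these 2 groups. No share of all genes was computed for the latter fits. Without orchiectomized library 2, which belongs to neither of these groups but enters the estimate of spread, *Il18r1* was also lower, beside 2.25% of all genes higher and 2.53% lower.

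**Figure D3:**
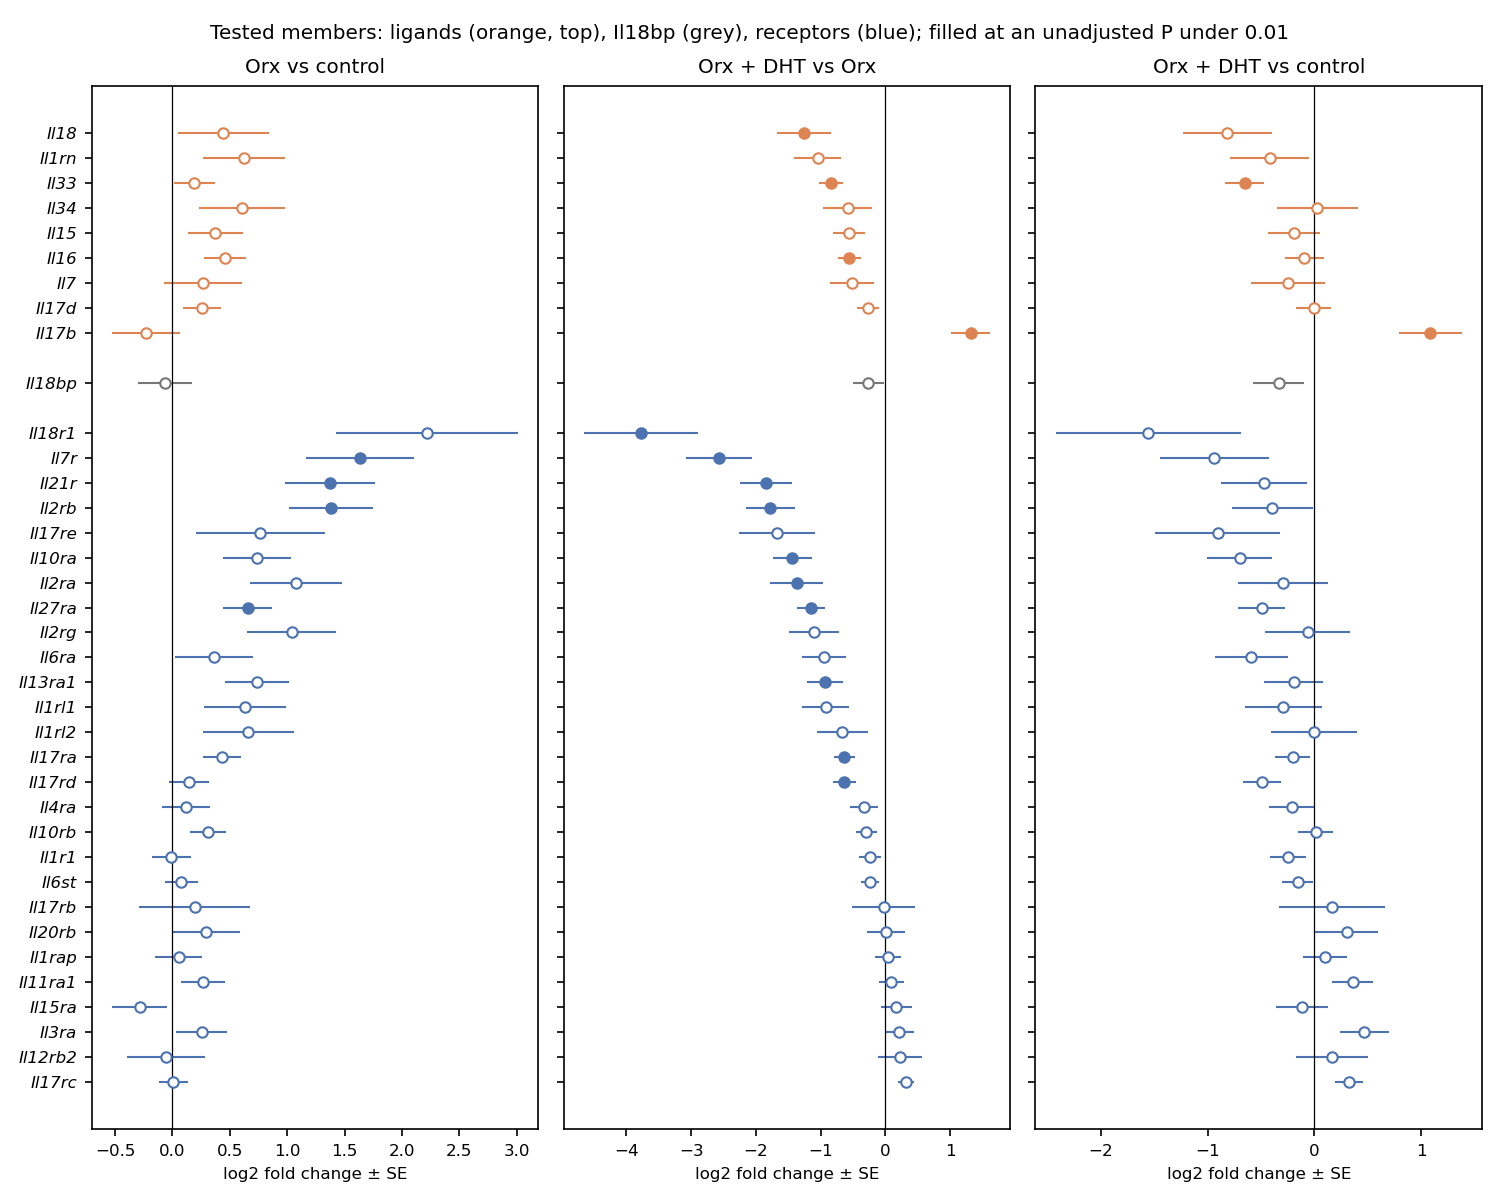
Log2 fold change with SE (edgeR) of the 37 tested members for the 3 comparisons, with ligands at the top, *Il18bp* in grey and receptors below, filled where the unadjusted P value was under 0.01. With DHT most ligands and receptors lie left of 0, and *Il17b* alone is a filled point to the right.

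*Il33* codes for a nuclear alarmin of stromal and endothelial cells that is released on damage and acts on the receptor ST2. Its level was 25.6, 40.6, 33.5, 39.4 and 43.3 CPM in control libraries 1 to 5, 25.1, 49.8, 47.1, 40.0 and 46.2 CPM in orchiectomized, and 27.5, 25.7, 20.6, 20.4 and 21.7 CPM in DHT-treated libraries. The DHT-treated libraries were the lower ones, apart from the first library of each other group, which fell within their range. DHT lowered *Il33* by a log2 fold change of −0.84 ± 0.18 (SE, adjusted P = 0.0205, edgeR), to 0.558 of its level in orchiectomized mice. Against control mice the log2 fold change was −0.65 ± 0.18 (adjusted P = 0.188), whereas orchiectomy alone gave 0.19 ± 0.18 (adjusted P = 0.69). Hence the level with DHT was below that of both other groups. Without the lung-containing library the log2 fold change with DHT was −0.76 (adjusted P = 0.0494). Endothelial and mesothelial genes were lower with DHT as well: 5 endothelial genes summed to 653 to 986, 783 to 1110 and 511 to 696 CPM in control, orchiectomized and DHT-treated libraries, with 3 of 5 falling against either group, and 5 mesothelial genes to 30.5 to 85.7, 42.2 to 171 and 7.31 to 20.3 CPM, with all 5 falling. Of 6 fibroblast genes, 1 fell against orchiectomized and 2 fell against control mice, with median log2 fold changes of −0.45 and −0.44. Beside these counts for endothelial, mesothelial and fibroblast genes, 7.35% of all genes fell against orchiectomized and 2.01% against control mice. The part of these cells in the *Il33* decrease was not tested. In whole-tissue RNA, fewer cells of a type and less RNA per cell cannot be told apart. *Il1rl1*, the gene of ST2, ranged from 2.36 to 9.49 CPM in control, 3.66 to 11.2 in orchiectomized and 3.17 to 4.68 in DHT-treated aortas, with a log2 fold change of −0.92 ± 0.36 with DHT (adjusted P = 0.153) that missed the threshold.

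*Il17b* was the exception in direction. It codes for a member of the IL-17 family that is made by tissue cells rather than by T cells. Its level was 9.24, 7.87, 11.1, 9.70 and 6.84 CPM in control libraries, 12, 4.15, 4.37, 6.25 and 11.5 CPM in orchiectomized, and 23.2, 15.8, 23.1, 12 and 20.9 CPM in DHT-treated libraries. Of the orchiectomized values 3 lay below the control range and 2 above it, and all DHT-treated values lay above the control values. DHT raised *Il17b* 2.49-fold (log2 1.32 ± 0.30, adjusted P = 0.0248, edgeR) over orchiectomized and 2.12-fold (log2 1.09 ± 0.29, adjusted P = 0.175) over control mice, and orchiectomy alone gave a log2 fold change of −0.23 ± 0.30 (adjusted P = 0.788). Its receptor *Il17rb* stayed between 0.326 and 1.68 CPM in all 15 libraries, and its log2 fold change with DHT was −0.03 ± 0.49 (adjusted P = 0.985). The 6 smooth muscle genes had higher sums with DHT as well, at 19700 to 24500 CPM against 14000 to 20100 CPM in control and 20500, 10300, 16900, 14100 and 18400 CPM in orchiectomized libraries 1 to 5. The orchiectomized libraries with the highest smooth muscle sums, 1 and 5, were also the highest for *Il17b*, and library 2 was the lowest for both. Libraries 3 and 4 of that group were in opposite orders for the 2 measures. In the control group library 2 had the highest sum, at 20100 CPM, with *Il17b* at 7.87 CPM. Control library 3 had a sum of 15300 CPM and the highest *Il17b*, at 11.1 CPM. The median log2 fold change of the smooth muscle list was 0.44 against orchiectomized and 0.41 against control mice, with 0 of 6 genes passing in either comparison and 2 of 6 against control mice without orchiectomized library 2. Over all genes 2.44% and 1.53% rose in these comparisons, and 2.25% against control mice without that library. The part of smooth muscle cells in the *Il17b* change was not tested.

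*Il16* codes for a chemoattractant of CD4+ cells that lymphocytes and other cells store as a precursor. Its level was 14.3, 15.9, 17.5, 23.3 and 22.0 CPM in control, 18.1, 29.5, 29.8, 30.4 and 20.1 CPM in orchiectomized, and 15.4, 20.1, 14.6, 20.6 and 16.4 CPM in DHT-treated libraries. Orchiectomized libraries 2, 3 and 4 stood above all others, and the other two overlapped with both groups. With DHT its log2 fold change was −0.55 ± 0.18 (adjusted P = 0.0915, edgeR), and −0.49 without orchiectomized library 2, where it no longer passed (adjusted P = 0.185). The call held in 7 of the 15 fits that left out 1 library. *Il18*, the IL-1 family cytokine that drives interferon-γ production, was at 1.18 to 2.55 CPM in control, 1.62, 4.95, 2.01, 1.44 and 1.79 CPM in orchiectomized, and 0.494 to 1.45 CPM in DHT-treated libraries. Its one high value was that of the library with lung transcripts. Its log2 fold change with DHT was −1.26 ± 0.42 (adjusted P = 0.096) with that library and −0.79 ± 0.35 (adjusted P = 0.224), no longer passing, without it, and the call held in 5 of the 15 fits that left out 1 library. *Il18bp*, whose product neutralizes IL-18, was 1.80 to 5.22 CPM over all libraries and did not pass in any comparison, the smallest adjusted P value with 15 libraries being 0.56.

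The other 5 tested ligands passed in no comparison. *Il17d*, *Il34* (a ligand of the CSF-1 receptor), *Il15* and *Il7* (growth factors of T and NK cells) and *Il1rn* (the IL-1 receptor antagonist) had log2 fold changes between −0.26 and −1.04 with DHT against orchiectomized mice, where *Il1rn* came nearest the threshold at −1.04 ± 0.37 (adjusted P = 0.111). For *Il34* the value moved from −0.58 to −0.17 without orchiectomized library 2, in which it reached 14.0 CPM against 3.55 to 7.97 CPM in the rest of the group.

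The receptors of the common gamma chain family, which serve the growth factors of T, B and NK cells, and their ligands were grouped with *Il13ra1*, which pairs with the IL-4 receptor chain in place of the common gamma chain. Of these 10 tested members 3 rose after orchiectomy and 5 fell with DHT, *Il13ra1* among them, beside 2.11% and 7.35% of all genes, and without orchiectomized library 2 the counts were 1 and 4, beside 0.881% and 5.29%. Of the 9 members other than *Il13ra1*, 4 fell with DHT in 15 libraries. *Il7r*, the IL-7 receptor of naive and memory T cells, was at 1.45, 1.22, 1.56, 1.20 and 0.912 CPM in control libraries 1 to 5, 0.969, 7.25, 2.27, 7.42 and 1.79 CPM in orchiectomized, and 0.599, 0.901, 0.513, 0.741 and 0.517 CPM in DHT-treated libraries. Orchiectomized libraries 2 and 4 were far above the rest, library 1 lay within the control range, and all DHT-treated values lay below every orchiectomized and every control value. The log2 fold change was 1.64 ± 0.47 after orchiectomy (adjusted P = 0.273, edgeR) and −2.57 ± 0.50 with DHT (adjusted P = 0.0156), which is 0.168 of the orchiectomized level. Without orchiectomized library 2 these were 1.31 (adjusted P = 0.599), which no longer passed, and −2.24 (adjusted P = 0.0311). The increase after orchiectomy also missed the threshold without orchiectomized library 4 or control library 5, with log2 fold changes of 1.23 to 1.88 over the 15 fits that left out 1 library. That call was lost as well with the replicate number as a block and in a fit of only the 2 groups compared.

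*Il2rb* codes for the signaling chain shared by the IL-2 and IL-15 receptors. Its level was 0.906, 1.12, 1.98, 2.05 and 1.46 CPM in control, 1.62, 5.39, 2.79, 6.53 and 3.34 CPM in orchiectomized, and 1.28, 1.44, 0.898, 1.36 and 0.724 CPM in DHT-treated libraries. Of the 5 orchiectomized libraries 4 were above every control library. After orchiectomy *Il2rb* rose by 1.38 ± 0.36 on the log2 scale (adjusted P = 0.235, edgeR) and fell by 1.78 on the log2 scale with DHT (SE 0.38, adjusted P = 0.0194), and it was the member that still passed for orchiectomy in the 14 other libraries (log2 1.25 ± 0.38, adjusted P = 0.485).

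*Il21r*, the IL-21 receptor of B, T and NK cells, was at 0.906, 2.53, 1.98, 3.96 and 2.01 CPM in control, 3.77, 10.2, 6.29, 6.53 and 2.93 CPM in orchiectomized, and 1.03, 2.07, 2.05, 1.98 and 1.14 CPM in DHT-treated libraries. Within the orchiectomized group it was highest in library 2, then in libraries 4 and 3, as was the B cell sum. Libraries 1 and 5 were in the opposite order, with B cell sums of 6.35 and 13.8 CPM. The log2 fold change was 1.37 ± 0.39 after orchiectomy (adjusted P = 0.273, edgeR) and 1.08 without library 2, where it no longer passed (adjusted P = 0.59), and was −1.85 ± 0.40 with DHT (adjusted P = 0.022). *Il2ra*, the high-affinity IL-2 receptor chain of regulatory and activated T cells, was at 0.634 to 1.64 CPM in control, 1.08, 4.77, 2.71, 2.68 and 1.87 CPM in orchiectomized, and 0.540 to 1.85 CPM in DHT-treated libraries. It fell with DHT by 1.37 on the log2 scale (SE 0.41, adjusted P = 0.0719), and the value was −1.04 (adjusted P = 0.155) without library 2, which no longer passed. The call was also lost without orchiectomized library 4 or DHT-treated library 1, 2 or 3. *Il13ra1*, a receptor chain for IL-4 and IL-13 on non-lymphoid cells, was at 22.9 to 32.6 CPM in control, 32.7, 93.4, 38.5, 36.0 and 28.7 CPM in orchiectomized, and 17.0 to 30.7 CPM in DHT-treated libraries. The lung-containing library was far above the others, and orchiectomized libraries 1, 3 and 4 were also above the control range. The decrease with DHT shrank from −0.93 ± 0.28 (adjusted P = 0.0686) to −0.48 ± 0.16 (adjusted P = 0.112) without the lung-containing library. It still passed there, and missed the threshold without DHT-treated library 3, 4 or 5. *Il2rg*, the common gamma chain itself, did not pass: it was at 34.6 CPM in that library, 6.46 to 19.4 CPM in the other orchiectomized libraries, 5.62 to 10.7 in control and 4.02 to 10.0 CPM in DHT-treated libraries. Of the ligands of these receptors, *Il7* (0.865 to 3.54 CPM) and *Il15* (2.48 to 7.34 CPM) were the ones tested, and neither passed in a comparison.

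The levels of these receptors can be set beside the T cell and B cell sums of the same libraries. Orchiectomized library 1, which had the lowest T cell and B cell sums of its group, also had the lowest *Il7r*, *Il2rb* and *Il2ra* values of the group, whereas *Il21r* was lowest in library 5. Library 3, which had the highest T cell sum, had less *Il7r* than libraries 2 and 4 and less *Il2rb* than libraries 2, 4 and 5. The B cell sums were 6.35, 156, 39.7, 70.1 and 13.8 CPM in libraries 1 to 5. *Il7r* was highest in libraries 4 and 2, followed by library 3, and *Il2ra* in library 2, followed by libraries 3 and 4. The part of these cells in the receptor changes was not tested.

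**Figure D4:**
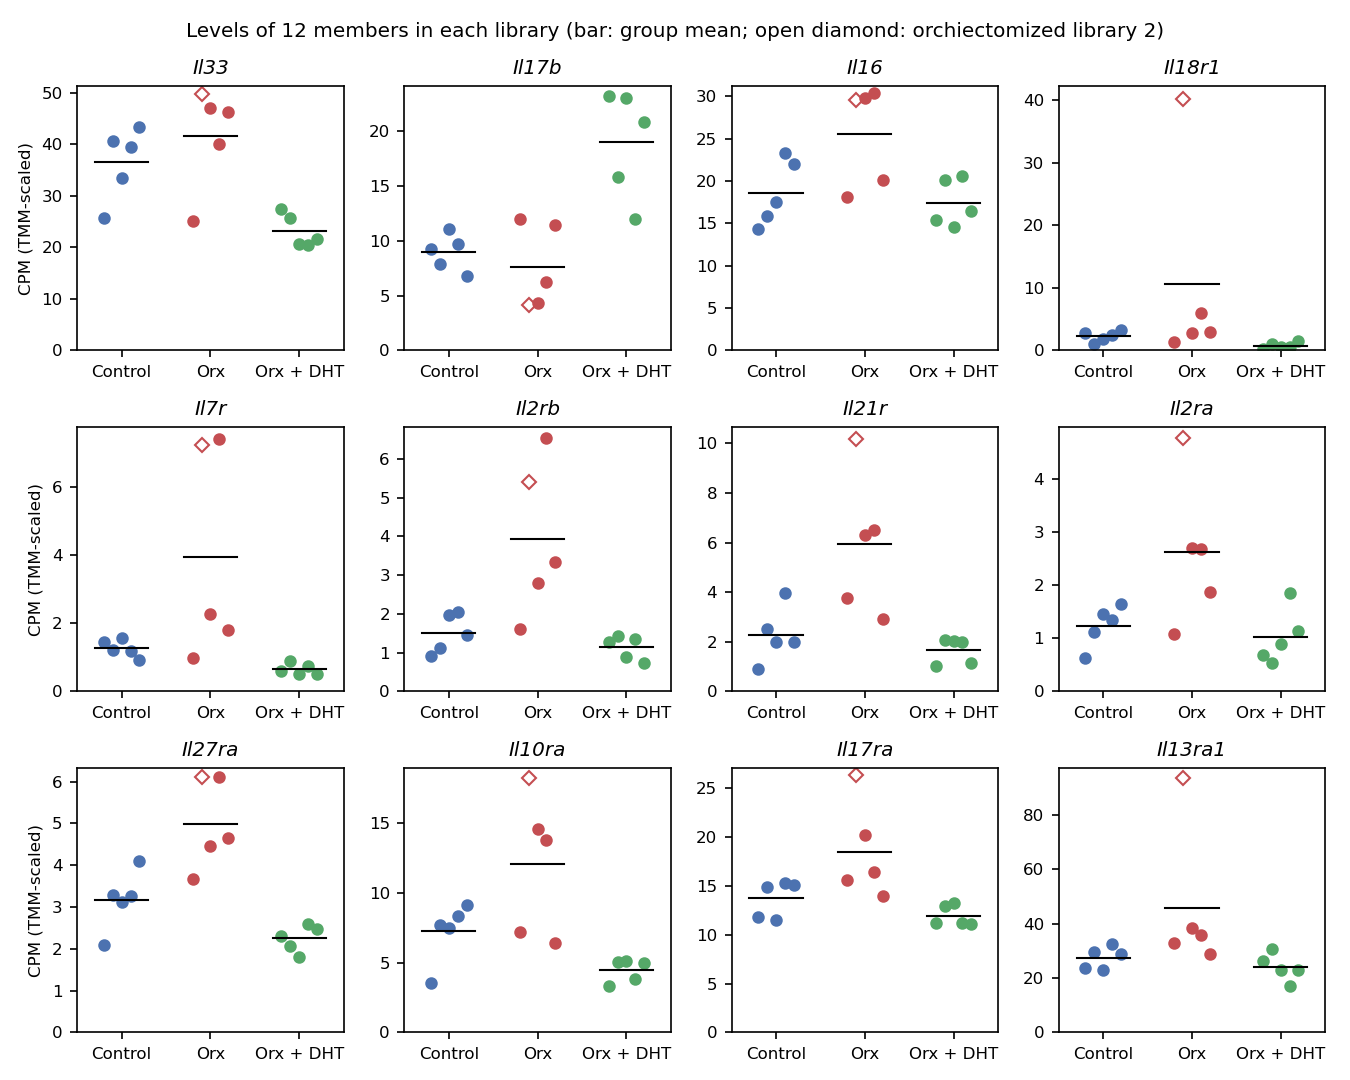
CPM of 12 members in each library, by group, with the group mean as a bar and orchiectomized library 2 as an open diamond. *Il17b* is higher with DHT, the other members are lower, and the diamond lies far above the other orchiectomized values of *Il18r1* and *Il13ra1*.

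*Il18r1*, the IL-18 binding chain on T and NK cells, had the most negative log2 fold change of all members with DHT, but its size and rank rested on 1 library. Without orchiectomized library 2 *Il7r* was the most negative, at −2.24. *Il18r1* was at 2.81, 1.03, 1.77, 2.48 and 3.28 CPM in control, 1.29, 40.3, 2.71, 5.91 and 3.01 CPM in orchiectomized, and 0.171, 1.08, 0.513, 0.618 and 1.45 CPM in DHT-treated libraries. Apart from library 2, only library 4 of the orchiectomized group was above the control range, and 3 of the 5 DHT-treated values were below all values of the other groups. The log2 fold change with DHT was −3.77 ± 0.88 (adjusted P = 0.0277, edgeR) and −2.06 ± 0.53 without library 2 (adjusted P = 0.0517), passing in both, and that after orchiectomy dropped from 2.22 (adjusted P = 0.33) to 0.51 (adjusted P = 0.824). Against control mice the DHT-treated mice had −1.56 ± 0.87 (adjusted P = 0.502) with 15 libraries and −1.56 ± 0.52 (adjusted P = 0.203) with 14, and passed with 14 but not with 15. This decrease also passed in a fit of only these 2 groups and without orchiectomized libraries 2 and 4. *Il18r1* lies in a run of IL-1 receptor genes on the plus strand of chromosome 1 (GRCm38), after *Il1r2* (chr1:40074079-40125231), *Il1r1* (chr1:40225080-40317257), *Il1rl2* (chr1:40324610-40367562) and *Il1rl1* (chr1:40429570-40465415), at chr1:40465552-40500854, and is followed by *Il18rap* (chr1:40515362-40551705). None of the other 3 tested genes of this run passed in a comparison, and *Il1r2* and *Il18rap* were below the minimum for testing. *Il1r1* was at 57.3 to 94.9 CPM in control, 55.8 to 84.2 in orchiectomized and 46.0 to 78.5 CPM in DHT-treated libraries (log2 −0.24 ± 0.17 with DHT, adjusted P = 0.453), and *Il1rap*, the accessory chain used by IL-1 and IL-33, was at 5.31 to 11.3 CPM over all libraries (log2 0.05 ± 0.20, adjusted P = 0.929).

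Of the 5 tested receptors of the IL-17 family, 2 fell with DHT, beside 7.35% of all genes, and both also passed without orchiectomized library 2, beside 5.29%. *Il17ra*, the chain common to the receptors for IL-17A, IL-17C, IL-17F and IL-25, was at 11.8, 14.9, 11.5, 15.3 and 15.1 CPM in control, 15.6, 26.3, 20.2, 16.4 and 14.0 CPM in orchiectomized, and 11.2, 12.9, 13.2, 11.2 and 11.1 CPM in DHT-treated libraries. Every orchiectomized value was above every DHT-treated value, and the DHT-treated and control ranges overlapped. DHT gave a log2 fold change of −0.63 ± 0.16 (adjusted P = 0.039, edgeR), and it passed with −0.46 (adjusted P = 0.0819) without orchiectomized library 2. *Il17rd*, also known as Sef, an inhibitor of fibroblast growth factor signaling, was at 13.4 to 20.2 CPM in control, 14.3 to 25.6 in orchiectomized and 10.2 to 15.7 CPM in DHT-treated libraries, with a log2 fold change of −0.63 ± 0.18 with DHT (adjusted P = 0.0547) that missed the threshold without orchiectomized library 3 or DHT-treated library 3 or 5. *Il17rc*, which pairs with *Il17ra* for IL-17A and IL-17F, went the other way without passing: it was at 31.0 to 49.6 CPM in control, 36.0 to 52.0 in orchiectomized and 47.4 to 61.2 CPM in DHT-treated libraries (log2 0.32 ± 0.13, adjusted P = 0.17).

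*Il27ra*, the IL-27 receptor chain of lymphocytes, had the smallest P value of all members with DHT. It was at 2.08, 3.28, 3.13, 3.26 and 4.11 CPM in control, 3.66, 6.10, 4.45, 6.11 and 4.64 CPM in orchiectomized, and 2.31, 2.07, 1.80, 2.59 and 2.48 CPM in DHT-treated libraries. The DHT-treated and orchiectomized values did not overlap, and only 1 orchiectomized library was within the control range. The log2 fold change was 0.66 ± 0.21 after orchiectomy (adjusted P = 0.3, edgeR) and −1.15 ± 0.22 with DHT (adjusted P = 0.014). The increase after orchiectomy was 0.57 (adjusted P = 0.642) and no longer passed without orchiectomized library 2, and of the 15 fits that left out 1 library it passed only in those without control library 5, orchiectomized library 1 or DHT-treated library 3. *Il10ra*, the IL-10 binding chain of leukocytes, was at 3.53, 7.68, 7.51, 8.35 and 9.12 CPM in control, 7.21, 18.2, 14.6, 13.8 and 6.43 CPM in orchiectomized, and 3.34, 5.04, 5.13, 3.83 and 4.97 CPM in DHT-treated libraries. Orchiectomized libraries 2, 3 and 4 stood above the control range and the other two within it. DHT lowered *Il10ra* by a log2 fold change of −1.43 ± 0.31 (adjusted P = 0.0203, edgeR; −1.23 with adjusted P = 0.042 without library 2). Of 7 macrophage genes, 4 fell with DHT (2 without library 2) and none rose after orchiectomy. Over all genes 7.35% fell with DHT (5.29% without library 2) and 2.11% rose after orchiectomy. The part of macrophages in the *Il10ra* change was not tested.

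The abundant chains of the IL-6 and IL-10 receptor families did not pass. *Il6st* was at 298 to 421 CPM in control, 288 to 493 in orchiectomized and 293 to 353 CPM in DHT-treated libraries (log2 −0.23 ± 0.14 with DHT, adjusted P = 0.369). *Il11ra1* was at 188 to 271, 225 to 413 and 210 to 429 CPM (log2 0.09 ± 0.19, adjusted P = 0.826), and *Il10rb* at 40.1 to 48.1, 39.8 to 85.9 and 41.1 to 50.5 CPM (log2 −0.30 ± 0.16, adjusted P = 0.306), the highest value being in orchiectomized library 2. *Il6ra*, the IL-6 binding chain, was at 5.80 to 16.5, 7.21 to 17.4 and 4.23 to 11.1 CPM, and its log2 fold change with DHT of −0.95 ± 0.34 (adjusted P = 0.125) missed the threshold.

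The promoters of 4 members that fell with DHT in 15 libraries are shown as the DNA next to the start of each gene. Each window holds 250 bases before and 50 bases after a transcription start in RefSeq (GRCm38.p6), read 5′ to 3′ on the gene's strand. Capitals mark the letters AGAACA, the half-site bound by androgen, glucocorticoid and mineralocorticoid receptors, or TTCNNNGAA, the site of STAT proteins, searched on both strands. *Il33* is shown at chr19:29924863-29925162 (plus strand), *Il7r* at chr15:9529827-9530126 (minus strand), *Il2ra* at chr2:11642542-11642841 (plus strand) and *Il18r1*, at the third of its starts, at chr1:40465756-40466055 (plus strand).
Il33: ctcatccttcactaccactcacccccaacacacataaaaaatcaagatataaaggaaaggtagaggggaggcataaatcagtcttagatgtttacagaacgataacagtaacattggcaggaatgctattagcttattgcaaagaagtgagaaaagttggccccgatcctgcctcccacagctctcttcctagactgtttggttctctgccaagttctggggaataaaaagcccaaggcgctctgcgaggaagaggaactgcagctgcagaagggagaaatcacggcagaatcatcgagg
Il7r: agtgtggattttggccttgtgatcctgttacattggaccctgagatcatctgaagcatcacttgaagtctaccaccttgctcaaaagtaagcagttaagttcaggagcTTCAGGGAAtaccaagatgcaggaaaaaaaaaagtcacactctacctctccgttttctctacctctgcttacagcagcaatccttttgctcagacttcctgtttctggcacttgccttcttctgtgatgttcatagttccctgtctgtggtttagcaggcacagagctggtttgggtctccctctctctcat
Il2ra: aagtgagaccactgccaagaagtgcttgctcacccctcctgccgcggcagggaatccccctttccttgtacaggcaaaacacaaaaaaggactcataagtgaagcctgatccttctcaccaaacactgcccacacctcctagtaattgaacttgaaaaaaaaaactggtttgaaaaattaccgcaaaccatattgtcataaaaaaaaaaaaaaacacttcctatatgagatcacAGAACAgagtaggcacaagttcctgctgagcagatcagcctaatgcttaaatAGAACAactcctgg
Il18r1: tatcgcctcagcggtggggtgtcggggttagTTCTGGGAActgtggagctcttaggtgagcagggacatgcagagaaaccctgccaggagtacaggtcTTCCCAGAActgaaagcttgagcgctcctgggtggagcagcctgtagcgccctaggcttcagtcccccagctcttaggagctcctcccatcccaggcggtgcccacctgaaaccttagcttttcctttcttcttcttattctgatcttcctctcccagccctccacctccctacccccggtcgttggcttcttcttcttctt
*Il2ra* held AGAACA at 2 places, both towards the 3′ end, *Il7r* held TTCNNNGAA at 1 place and *Il18r1* at 2, and *Il33* held neither in this window. The windows at the other 2 starts of *Il18r1* and at the other start of *Il33* held neither motif. Of the members that changed with DHT, 9 had windows in the table, 14 windows in all. AGAACA was in 3 of these 14 (21.4%) and in 19% of 32851 mouse promoter windows, and TTCNNNGAA in 2 of 14 (14.3%) and in 8.3% of all windows. Letters in a window are a description of sequence and not a measurement of binding.

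Across the 37 members the sign of the median did not depend on orchiectomized library 2, but its size did. The median log2 fold change of all members was 0.36 with and 0.16 without it after orchiectomy, and −0.58 and −0.45 with DHT. The members that moved most were *Il18r1*, *Il17re*, a chain of the IL-17C receptor, at 13.7 CPM in that library and 1.51 to 3.57 CPM in the rest of the group, and *Il1rl2*, the IL-36 receptor, at 17.2 and 3.02 to 5.50 CPM. Leaving out library 4 as well, an alternative chosen after the data were seen because libraries 2 and 4 were highest for several receptors of T cells, left no member passing for orchiectomy and 9 for DHT against orchiectomized mice, beside 0.599% of all genes higher and 0.796% lower for orchiectomy and 1.79% higher and 3.5% lower for DHT. Against control mice 4 members passed, beside 2.11% of all genes higher and 2.28% lower. The 9 members for DHT against orchiectomized mice were *Il18r1*, *Il7r*, *Il2rb*, *Il21r*, *Il27ra*, *Il10ra*, *Il17ra* and *Il33*, which were lower, and *Il17b*, which was higher. The log2 fold changes were then −1.33 for *Il7r*, −0.90 for *Il27ra*, −0.75 for *Il33* and 1.06 for *Il17b*. The same 9 passed when any single library was left out.

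**Figure D5:**
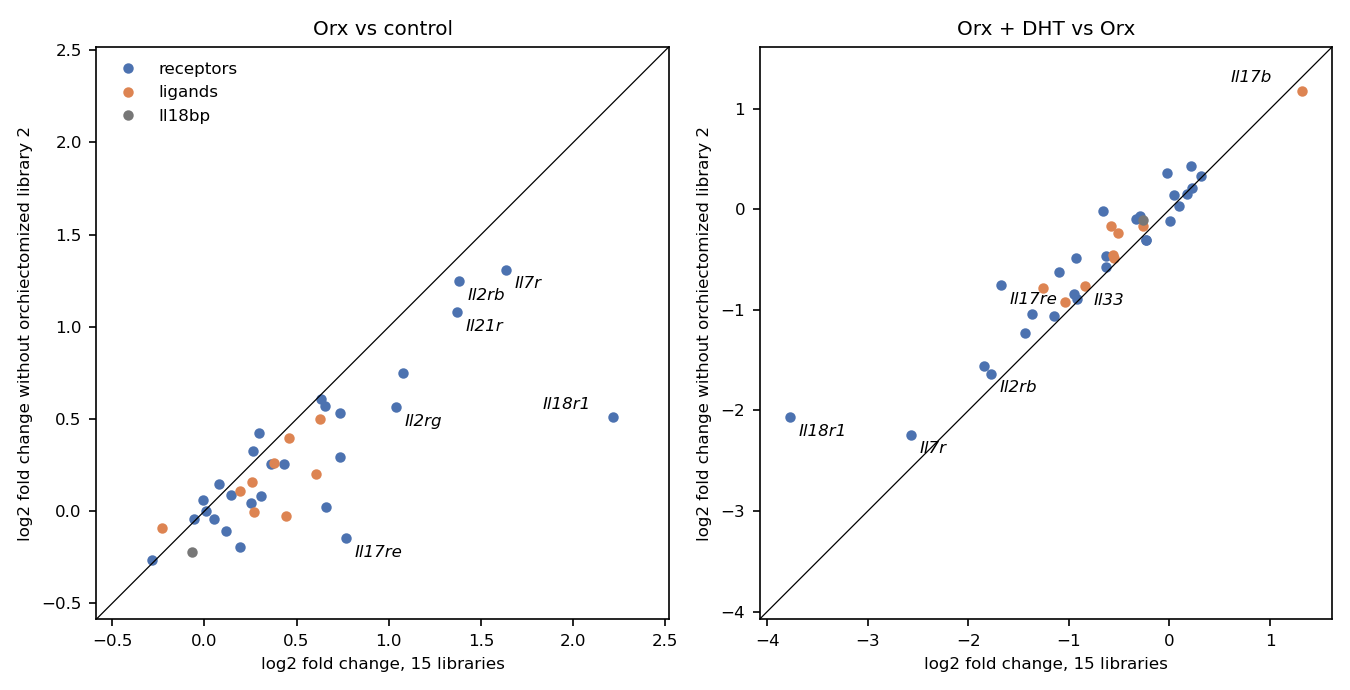
Log2 fold change of the 37 tested members with all 15 libraries (x axis) against that without orchiectomized library 2 (y axis), for orchiectomized against control mice and for DHT-treated against orchiectomized mice, with the line of equality. *Il18r1* lies farthest from the line in both panels.

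Of the 42 tested genes that carry interleukin signals or partner with interleukins outside the name rule, 2 rose after orchiectomy (4.76%) and 4 fell with DHT against orchiectomized mice (9.52%), beside 2.11% and 7.35% of all genes. Of 12 tested signal transducers of the IL-1 receptor family, 1 rose after orchiectomy, *Nfkbia*, the NF-κB inhibitor (log2 0.49 ± 0.15, adjusted P = 0.284, edgeR), and none changed with DHT. Of 11 JAK and STAT genes, *Stat4*, which signals for IL-12 in T and NK cells, rose after orchiectomy (log2 1.54 ± 0.46, adjusted P = 0.28) and fell with DHT (log2 −2.92 ± 0.52, adjusted P = 0.0105), from 1.95 ± 1.36 CPM to 0.252 ± 0.105 CPM (SD, n = 5). It had 10 counts or more in 3 orchiectomized libraries and 2 control libraries only, so it was tested only because of the group in which it was high, and its calls are no support for a change in this list. *Jak1*, used by gp130 and the common gamma family, was at 146 ± 12.1 CPM in control, 143 ± 25.2 in orchiectomized and 110 ± 13.6 CPM in DHT-treated aortas, and fell with DHT against orchiectomized (log2 −0.38 ± 0.13, adjusted P = 0.0891) and control mice (log2 −0.41, adjusted P = 0.234). None of 4 SOCS feedback inhibitors passed in any comparison. Of 15 tested partner ligands and receptors named outside the rule, *Csf2ra* (log2 −0.76, adjusted P = 0.0428) and *Csf1r* (log2 −0.77, adjusted P = 0.0964), the receptors of the myeloid growth factors GM-CSF and CSF-1, fell with DHT. Without orchiectomized library 2, *Nfkbia* and *Stat4* no longer passed for orchiectomy, where their log2 fold changes were 0.42 and 1.09. Nor did *Jak1* and *Csf1r* pass for DHT against orchiectomized mice, where the values were −0.39 and −0.77, close to those with 15 libraries.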

How the data were processed

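RNA-Seq was performed on 15 libraries of mouse aorta, 5 per group, each from 1 mouse as the study describes its groups. Libraries were prepared from poly(A)-enriched RNA of aortas cleaned in RNAlater. The authors deposited whole-number read counts per gene symbol for each library, with no normalization. The submitters' processing notes name STAR, Cufflinks, DESeq2 and the build mm10. Which tool counted, with which annotation and strand setting, is not given in the sources used here. Entries for reads in no gene (6.26% to 14.4%) or in more than 1 gene (1.34% to 1.97%) were left out. Gene reads ranged from 8268957 to 13816864 per library, so 10 counts were 0.915 CPM in the median library.

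Counts were analyzed with edgeR 4.0.16 in R 4.3.3 (TMM, quasi-likelihood, 3 groups in 1 model, no covariate) over the 14191 genes with at least 10 counts in at least 5 libraries. The common biological coefficient of variation was 0.298. The SE was the log2 fold change divided by the square root of F, and P values were adjusted by Benjamini-Hochberg over all genes tested. The comparisons share groups, so their changes are not independent: the orchiectomized libraries enter the first comparison and the second one. P values set a group difference against the spread between libraries, estimated over all 3 groups.

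The members, gene lists and marker lists were chosen with earlier results of these data known. Named members are those passing in any comparison with 15 or 14 libraries, those the paper names, the 5 ligands and 5 receptors of highest level, tested partners of the former, and members below the minimum with at least 10 counts in a library. *Il1rn*, *Il2rg*, *Il17re*, *Il1rl2*, *Il11ra2*, *Il12b*, *Il1f9* and *Il23r* were named after their values were seen. Lists for mast cells, neutrophils, fibroblasts, adipocytes and lymph node stroma were computed as well. Alternatives were DESeq2 1.42.0, RLE size factors, filterByExpr, all genes with at least 1 count, only the groups compared, the replicate number as a block, a robust fit, the adjusted threshold and leaving out each library. Exon lengths and positions were from GENCODE mouse release 21 (GRCm38, all 37 tested members matched), and promoters from RefSeq. Figures were drawn with Python 3.11.15.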

Additional observations from a re-analysis of the deposited data

Results flagged for a closer look

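Of 120 groups of 5 libraries checked over 40 named members, 12 held a library whose gap to the next exceeded Dixon's limit, where chance flags about 1 in 20 groups. In 6 of the 12 the library was orchiectomized library 2, which carried lung transcripts: *Il18r1* at 40.3 CPM (next 5.91), *Il13ra1* at 93.4 CPM (next 38.5), *Il22ra1* at 5.66 CPM (next 0.786), *Il18* at 4.95 CPM (next 2.01), *Il1r2* at 0.972 CPM (next 0.206) and *Il1a* at 0.619 CPM (next 0.175). The part of the lung transcripts in these values was not tested.

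The other 6 were spread over 4 libraries. In control library 2, *Il6* was at 1.03 CPM (next 0.212) and *Il1a* at 0.281 CPM (next 0). In DHT-treated library 2, *Il7* was at 2.88 CPM (next 1.41) and *Il31ra* at 0.901 CPM (next 0.257). *Il10ra* was low in control library 1, at 3.53 CPM (next 7.51), and *Il1a* was at 0.124 CPM in DHT-treated library 4 (next 0). The *Il1a*, *Il6*, *Il1r2* and *Il31ra* values rest on few counts.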

How the results depend on the processing

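Of the settings tried for single members, 414 left the call as it was, 66 lost it, 3 gained one and 0 turned the direction. For orchiectomized against control mice, 4 members passed, against 5 with DESeq2, 2 in a fit of only the 2 groups compared, 0 at an adjusted P value under 0.05 and 0 without orchiectomized libraries 2 and 4, and 1 to 8 when 1 library was left out, with 1 without orchiectomized library 2, 2 without library 4, 7 without library 5 and 8 without library 1. Fitting all genes with at least 1 count gave 5, with *Il12b* and *Il1f9*, at most 7 counts each in any library, in place of *Il27ra*, and with DHT *Il22ra1* and *Il23r* entered in place of *Il16* and *Il18*. For DHT against orchiectomized mice, 14 members passed, against 17 with DESeq2, 9 at the adjusted threshold (12 with DESeq2, 2 in a fit of only the 2 groups) and 9 without libraries 2 and 4, and 9 to 19 when 1 library was left out, the lowest without DHT-treated library 3. For DHT against control mice, 2 passed, against 5 in a fit of only the 2 groups, 0 at the adjusted threshold (2 with DESeq2, 1 in a fit of only the 2 groups), 4 without libraries 2 and 4, and 2 to 4 when 1 library was left out, the highest without control library 1. In the 14 libraries without orchiectomized library 2, DESeq2 called 2 members for orchiectomy against 1 with edgeR, and the adjusted threshold left 0, 7 of 11 and 0 of 3 in the order of comparisons above. Shares of all genes were computed only for the edgeR fits of 15 libraries, without orchiectomized library 2 and without libraries 2 and 4. The counts of the other settings have no such share beside them, so they cannot be read as particular to the members. The cause of these shifts was not tested.

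The replicate numbers of the labels did not pair the libraries: of 15 same-number pairs, 5 had a correlation of deviations over 0.1 (range −0.455 to 0.448, and −0.67 to 0.681 in other pairs). With the replicate block 3, 14 and 3 members passed. *Il7r* dropped out for orchiectomy, *Il6ra* replaced *Il18* for DHT against orchiectomized mice, and *Il17rd* was added for DHT against control mice. The median of all genes moved by less than 0.1 on the log2 scale under any scaling. At this depth members under about 1 CPM rest on few counts, and a change in *Il6*, *Il1b* or the other ligands below the minimum was not detectable unless it was large.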
